A study of Rattus norvegicus with 6 samples.

Results

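The S100 genes encode small calcium-binding proteins, and 9 of them were examined here in cultured rat heart cells: S100a1, S100a3, S100a4, S100a6, S100a10, S100a11, S100a13, S100a16 and S100b. They were chosen with earlier results of these data known and were matched by gene symbol. Of the 9, 8 were found in that way among 23096 protein-coding genes. S100a13 was not matched by symbol and was not analysed here. RefSeq gives S100A1 as an older name of S100a13, so whether the values under S100a1 hold S100a13 reads could not be settled. Poly(A) RNA had been sequenced from ventricular cardiomyocytes isolated from Wistar rat embryos at embryonic stage E18.5. One group was kept for 48 h in 10 µM ATRA (all-trans retinoic acid), the form of vitamin A that binds nuclear retinoic acid receptors, and the other for the same 48 h with DMSO (dimethyl sulfoxide), its solvent, here called vehicle. Each group has 3 libraries. Cells of both groups had gone through 2 rounds of pre-plating of 1 h each, which lowers the number of fibroblasts without removing all of them, and had then grown for 24 h on laminin in medium with 7% fetal bovine serum. The labels do not say if replicates stem from different isolations or how many embryos each pools, so p-values measure only how far these samples scatter, and that scatter may be technical.

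S100 proteins belong to the EF-hand family, in which a helix-loop-helix fold holds a calcium ion. Most form dimers, and on binding calcium they expose a surface that grips a partner protein such as an annexin, a myosin or an ion channel. In heart muscle S100A1 is the best studied member, since it binds the ryanodine receptor and the sarcoplasmic reticulum calcium pump, whereas S100A4, S100A6 and S100A10 are abundant in fibroblasts and other migrating or dividing cells. S100B is known mainly from glia and has been described in rodent heart muscle under stress.

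The libraries held 27497967 to 30368936 gene-assigned reads for ATRA and 25434878 to 32052035 for vehicle. The retinoic acid hydroxylase gene Cyp26a1, a direct target of the receptors, reached 42441 ± 432 normalised counts after ATRA, against 44.0 ± 10.8 in vehicle (SD, n = 3 each). A normalised count is the number of reads of a gene divided by a size factor of its library. All 12 cardiomyocyte markers were well detected, with a summed level of 16438 to 16604 FPKM in ATRA libraries and 9441 to 12769 FPKM in vehicle libraries, where FPKM is a level per length of transcript and per depth of library. In a limma fit over 13110 genes, ATRA libraries had 2667 genes higher and 2483 lower at a Benjamini-Hochberg adjusted p under 0.05. Of the 12 cardiomyocyte markers 5 were called higher, where 20.3% of all tested genes were, and 6 did not pass. The other marker, Myh7, was called lower, where 18.9% of all tested genes were. Scaling by library totals alone gave 1765 higher and 3769 lower genes, with the median log2 fold change of all genes at -0.10 in place of 0.0044. Each log2 fold change below is ATRA against vehicle on the log2(normalised count + 1) scale with its standard error from limma, and an adjusted p covers all genes tested.

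The S100 genes split into a group that fell after ATRA and a group that rose. S100a6, S100b, S100a10 and S100a4 fell, S100a11, S100a1 and S100a16 rose, and S100a3 did not pass the test. Thus 7 of the 8 measured genes were called in either direction, where 39.3% of all tested genes were. Of these 7, 4 were called lower, where 18.9% of all tested genes were, and 3 were called higher, where 20.3% of all tested genes were. The count of 7 fell to 4 (1 higher, 3 lower) without ATRA replicate 1, 2 or 3 or without vehicle replicate 2. It was 5 (2 higher, 3 lower) without vehicle replicate 1. Without vehicle replicate 3, 3 were higher and 5 lower, and library totals alone gave 1 higher and 4 lower. Over all genes, leaving out 1 library gave 1665 to 3398 higher and 1636 to 3061 lower, beside 2667 and 2483 with all libraries. The median log2 fold change of the 8 S100 genes was -0.69, beside 0.0044 over all genes tested. In 7 of the 8 the ATRA and vehicle libraries did not overlap in normalised counts, as was the case for 53.8% of all tested genes. None of the 8 had a normalised count under 10 in any library. The lowest single values were 16.3 for S100b and 20.6 for S100a3.

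Most of these genes lie close to each other in the genome. On the rat assembly GRCr8, RefSeq places 8 of the 9 on chromosome 2 and S100b on chromosome 20. The order on chromosome 2 is S100a1, S100a13, S100a14, S100a16, S100a3, S100a4, S100a5 and S100a6, each the next protein-coding gene after the one before, and S100a11 and S100a10 are neighbours elsewhere on that chromosome. S100a4 and S100a6 both fell, while S100a5, which lies between them, had 12 reads over all 6 libraries. S100a11 rose and its neighbour S100a10 fell. The 250 bases before the RefSeq start are shown for S100a4 and S100a6, which lie close together and fell, and for S100a11, the most abundant member, which rose. They are, on GRCr8 and the plus strand, chr2:178388279-178388528 for S100a4, chr2:178398287-178398536 for S100a6 and chr2:181874882-181875131 for S100a11. Capitals mark matches, on either strand, to TATAAA, the TATA box, to AGGTCA, the core motif of retinoic acid receptors, or to GGGCGG, the GC box bound by Sp1.
S100a4: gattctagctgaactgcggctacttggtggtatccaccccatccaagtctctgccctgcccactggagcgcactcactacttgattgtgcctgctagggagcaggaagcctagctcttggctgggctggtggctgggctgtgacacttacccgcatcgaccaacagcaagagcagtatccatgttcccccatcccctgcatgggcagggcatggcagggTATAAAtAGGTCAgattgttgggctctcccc
S100a6: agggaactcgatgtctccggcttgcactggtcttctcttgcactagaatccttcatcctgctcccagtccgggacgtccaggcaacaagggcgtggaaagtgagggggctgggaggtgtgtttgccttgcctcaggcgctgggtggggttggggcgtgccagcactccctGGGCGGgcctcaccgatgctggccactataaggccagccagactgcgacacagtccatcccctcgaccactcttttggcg
S100a11: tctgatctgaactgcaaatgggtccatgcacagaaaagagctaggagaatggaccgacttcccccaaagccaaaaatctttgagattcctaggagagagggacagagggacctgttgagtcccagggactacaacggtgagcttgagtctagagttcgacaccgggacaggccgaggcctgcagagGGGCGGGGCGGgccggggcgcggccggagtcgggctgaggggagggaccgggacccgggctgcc
The S100a4 window held a TATAAA match that starts 31 bases before the start and an AGGTCA match that starts 24 bases before it. The S100a6 window held a GGGCGG match that starts 80 bases before the start, and the S100a11 window a pair of GGGCGG matches that overlap, at 64 and 59 bases before the start. Among 33469 rat promoter windows of this length, 12.9% held TATAAA, 14.1% AGGTCA and 30.5% GGGCGG. Windows were at hand for 7 of the named genes, of which 1 held TATAAA, 2 AGGTCA and 4 GGGCGG. The AGGTCA matches were in the S100a4 window and, on the other strand, in that of S100a3, which did not pass the test. The AP-1 site was in 6.34% of all windows and in 0 of the 7 windows of named genes. The DR5 retinoic acid response element was in 0.326% of all windows and likewise in 0 of these 7. These matches describe the letters of the windows and say nothing of whether a factor binds there.

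S100a6 fell the most of the 8 in the fit of all libraries, while without vehicle replicate 3 S100b had -2.34 and S100a6 -2.31 on the log2 scale. S100a6 encodes calcyclin, which binds annexin A11 and the calcyclin-binding protein and is induced when fibroblasts start to divide. S100a6 (ENSRNOG00000011647) had 1349, 1342 and 1307 normalised counts in ATRA replicates 1 to 3, against 8219, 5355 and 3429 in vehicle replicates 1 to 3. The ATRA libraries lay close together and all were below the lowest vehicle library, while the vehicle libraries differed among themselves by 2.4-fold. S100a6 averaged 1333 ± 22.3 normalised counts after ATRA and 5668 ± 2410.3 in vehicle (SD, n = 3 each), a 3.99-fold lower level (log2 fold change -1.997 ± 0.26, SE, limma adjusted p = 0.00088). The log2 fold change was -1.68 without vehicle replicate 1 and -2.31 without vehicle replicate 3, with adjusted p-values of 4.9e-08 to 0.0071 over all settings tried.

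S100a4 and S100a10 fell together by a smaller amount. S100a4, also known as fibroblast-specific protein or metastasin, binds non-muscle myosin IIA and is widely used, though not specific, as a fibroblast marker. S100a4 (ENSRNOG00000011821) had 5929.7, 5799 and 5718 normalised counts in ATRA replicates 1 to 3 and 12687, 10409 and 7723 in vehicle replicates 1 to 3. No ATRA library reached the lowest vehicle library, and the fall was 1.73-fold (log2 fold change -0.79 ± 0.15, SE, limma adjusted p = 0.0054). S100a10, or p11, has lost the ability to bind calcium, and its dimer joins a pair of annexin A2 molecules into a complex at membranes. S100a10 (ENSRNOG00000023226) had 2707, 2655 and 2809.8 normalised counts in ATRA libraries and 6664, 5113 and 3907 in vehicle libraries. These groups did not overlap either, and the level was 1.88-fold lower after ATRA (log2 fold change -0.91 ± 0.16, SE, limma adjusted p = 0.0039). RefSeq lists 1 pseudogene named after S100a10, and how reads that fit several places were counted is not given in the sources used here.

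S100b fell as well, from a low level. S100b (ENSRNOG00000001295) had 23.5, 19.2 and 16.3 normalised counts in ATRA libraries, against 106.5, 99.0 and 27.2 in vehicle libraries. Vehicle replicate 3 lay close to the ATRA libraries and far below the other vehicle libraries, with 25 reads where these had 110 and 114. The log2 fold change was -1.72 ± 0.49 (SE, limma adjusted p = 0.026), or 3.28-fold lower. Leaving out ATRA replicate 1, 2 or 3 or vehicle replicate 1 or 2 gave -1.85, -1.71, -1.59, -1.38 and -1.43 and ended the call each time, with adjusted p-values of 0.060, 0.077, 0.090, 0.064 and 0.093. Without vehicle replicate 3 the log2 fold change was -2.34, and over all settings the adjusted p ran from 7.3e-05 to 0.093.

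**Figure D1:**
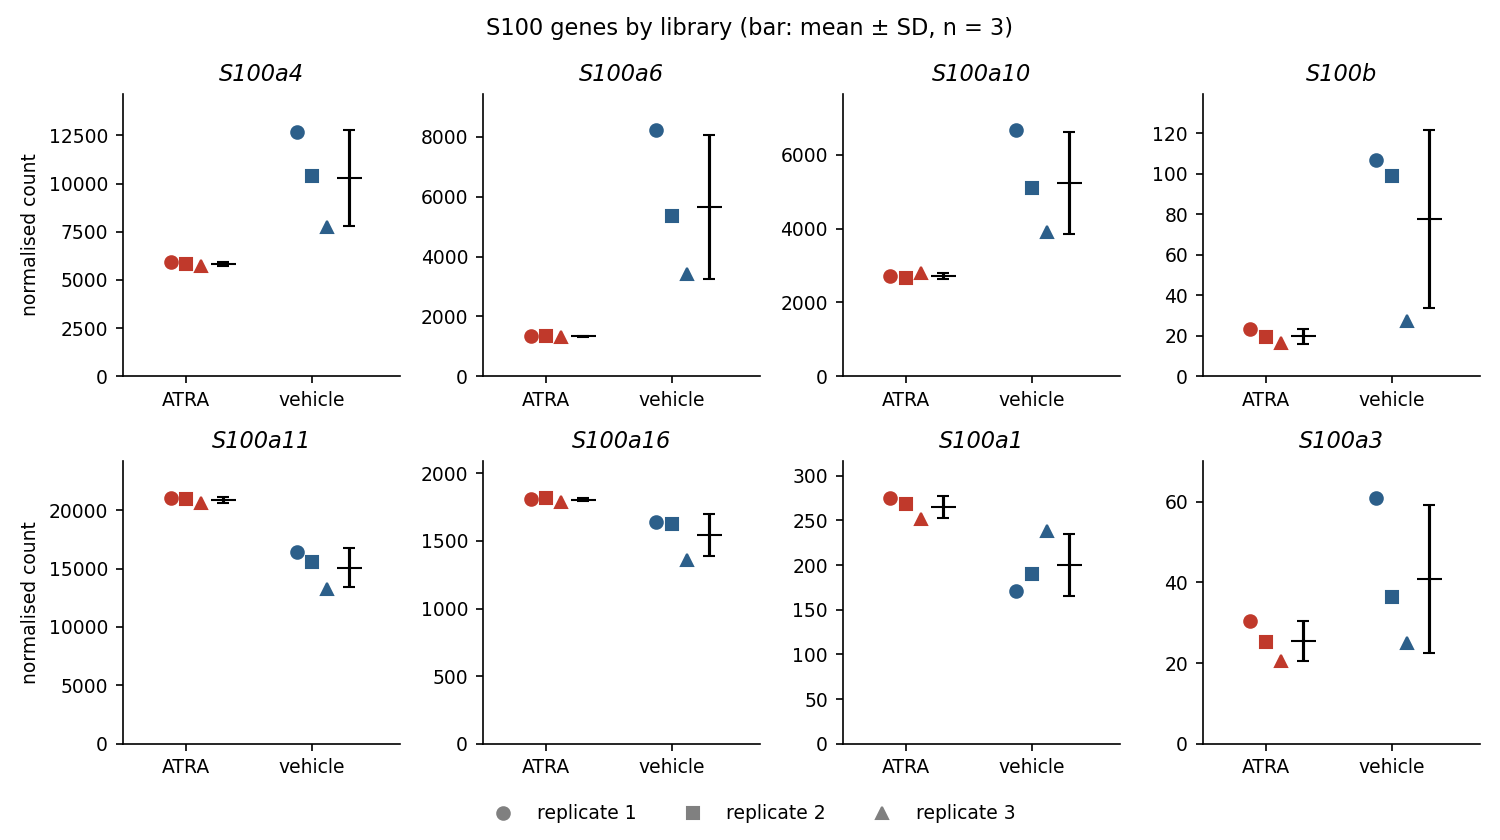
Normalised counts (vertical axis, from 0) of the 8 measured S100 genes in the ATRA (red) and vehicle (blue) libraries, 1 panel per gene. Symbols mark replicates 1 to 3 and black bars the mean ± SD (n = 3). The ATRA libraries of S100a6 sit between 1307 and 1349, all below the vehicle libraries, and only in the S100a3 panel do the groups overlap.

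S100a11 was the clearest rise. It encodes calgizzarin, a partner of annexin A1 that takes part in membrane repair and in growth control of epithelial cells. S100a11 (ENSRNOG00000010105) had 21060.5, 20993 and 20595.5 normalised counts in ATRA replicates 1 to 3, against 16401, 15595.5 and 13229 in vehicle replicates 1 to 3. Every ATRA library was above every vehicle library. The rise was 1.39-fold (log2 fold change 0.48 ± 0.08, SE, limma adjusted p = 0.0031), and it stayed between 0.37 and 0.54 and past the threshold in every setting tried. RefSeq lists 5 pseudogenes and 2 further genes named after S100a11, so reads shared with such copies leave its separate value uncertain.

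S100a1 and S100a16 rose by less, close to the threshold. S100a1, the member known from striated muscle, had 275, 269 and 251.5 normalised counts in ATRA libraries and 171, 190.1 and 238 in vehicle libraries. Here vehicle replicate 3 was the highest of the vehicle libraries, still below the lowest ATRA library. Within that limit on which gene its reads belong to, S100a1 (ENSRNOG00000012410) was 1.34-fold higher after ATRA (log2 fold change 0.42 ± 0.13, SE, limma adjusted p = 0.040). The call was lost without ATRA replicate 1, 2 or 3 (log2 fold change 0.39, 0.41 and 0.46, adjusted p = 0.128, 0.118 and 0.086) and without vehicle replicate 1 or 2 (0.32 and 0.39, adjusted p = 0.087 and 0.109). It was also lost with library totals alone (0.31, adjusted p = 0.094), within a range of adjusted p of 0.0026 to 0.128 over all settings. The authors' deposited table gives S100a1 a log2 fold change of 0.41 and an adjusted p of 0.039.

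S100a16, a widely expressed member studied in fat cells and tumours, moved within a narrow range. S100a16 (ENSRNOG00000012053) had 1809, 1819 and 1792 normalised counts in ATRA libraries and 1641.5, 1628.5 and 1363 in vehicle libraries. The groups did not overlap, and the level was 1.17-fold higher after ATRA (log2 fold change 0.23 ± 0.08, SE, limma adjusted p = 0.046). Leaving out ATRA replicate 1, 2 or 3 or vehicle replicate 2 ended the call (adjusted p = 0.127, 0.130, 0.120 and 0.055), and without vehicle replicate 3 it held with a log2 fold change of 0.14. With TMM factors, edgeR, DESeq2 or no filter it missed the threshold narrowly (adjusted p = 0.0515 to 0.0571). It was 0.12 with library totals alone (adjusted p = 0.243, the highest over all settings, of which 0.024 was the lowest). In the authors' deposited table the log2 fold change of S100a16 is 0.23 with an adjusted p of 0.057.

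S100a3, which binds zinc and copper and is best known from the hair cuticle, was at a low level in both groups. S100a3 (ENSRNOG00000012008) had 30.4, 25.3 and 20.6 normalised counts in ATRA libraries and 61.0, 36.5 and 25.0 in vehicle libraries. The groups overlapped, and the log2 fold change of -0.59 ± 0.34 did not pass the test (SE, limma adjusted p = 0.204), with a 95% interval of -1.37 to 0.19. The log2 fold change was -0.26 without vehicle replicate 1, and without vehicle replicate 3 it was -0.88 and passed (adjusted p = 0.036, the lowest over all settings, of which 0.536 was the highest).

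**Figure D2:**
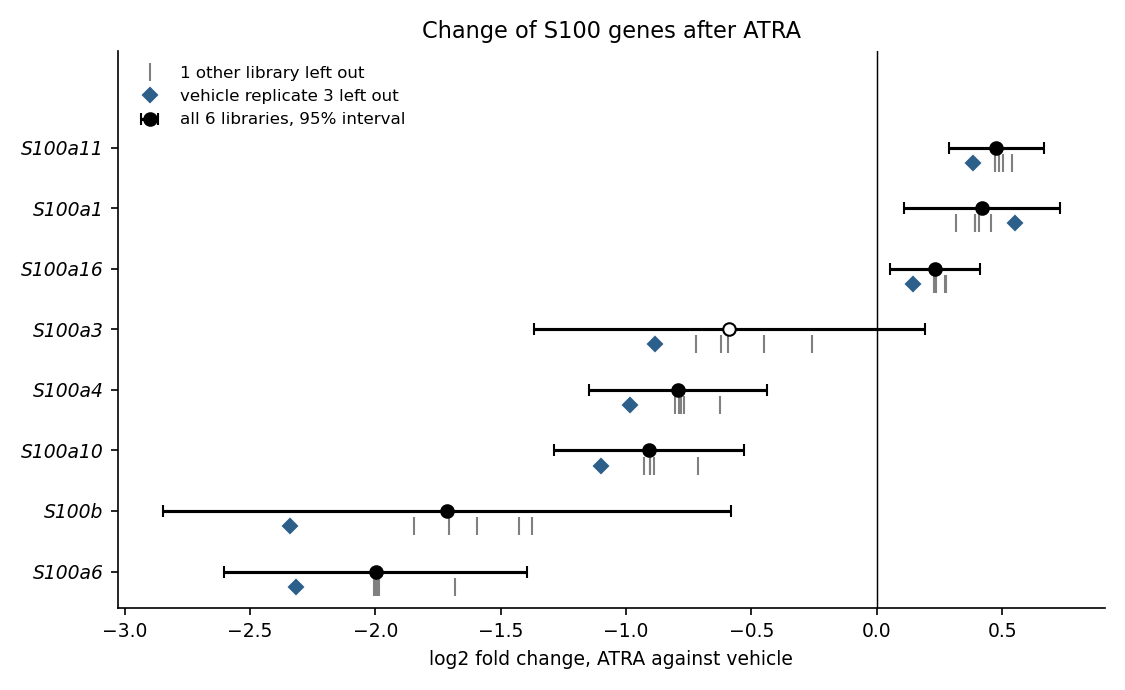
Log2 fold change of each S100 gene, ATRA against vehicle (horizontal axis), with its 95% interval from limma (black, filled where the adjusted p was under 0.05). Grey ticks show the value with 1 library left out and blue diamonds the value without vehicle replicate 3, which lies farther from 0 for S100a6 (-2.31), S100b (-2.34) and the other genes that fell, and nearer to 0 for S100a11 (0.38) and S100a16 (0.14).

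The family was made up differently in the 2 groups. Per length, S100a11 was the most abundant member in each library, with 1398 ± 16.8 FPKM after ATRA and 1009 ± 110 FPKM in vehicle (SD, n = 3 each). S100a4 followed at 364 ± 6.68 FPKM after ATRA and 644 ± 156 FPKM in vehicle. In each ATRA library S100a10 (105.5 to 112 FPKM) lay just above S100a6 (98.0 to 101 FPKM), whereas in each vehicle library S100a6 (257 to 616 FPKM) lay above S100a10 (155 to 265 FPKM). Taken over vehicle libraries the ranges of S100a4 and S100a6 overlapped, as did those of S100a6 and S100a10. S100a16 was lower again, at 53.9 ± 0.407 FPKM after ATRA and 46.1 ± 4.70 FPKM in vehicle.

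The remaining members were at the low end. S100a1 reached 6.60 ± 0.307 FPKM after ATRA and 4.97 ± 0.858 FPKM in vehicle, which placed it at rank 6997 of 23096 genes by mean FPKM, while S100a11 was at rank 30. S100a3 had 0.603 ± 0.116 FPKM after ATRA and 0.968 ± 0.436 FPKM in vehicle, and S100b had 0.355 ± 0.0659 FPKM after ATRA and 1.401 ± 0.791 FPKM in vehicle. These last ranges did not overlap between the 2 genes after ATRA and overlapped in vehicle.

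As a share of the summed FPKM of the 8 genes, S100a11 made up 68.8% ± 0.175 after ATRA and 43.8% ± 4.83 in vehicle (SD, n = 3 each). S100a6 made up 4.92% ± 0.0297 after ATRA and 17.6% ± 3.89 in vehicle. The sum itself was 2052, 2036 and 2007 FPKM in ATRA libraries, against 2830.1, 2356.5 and 1829 FPKM in vehicle libraries. These sums overlapped between the groups, whereas the sum without S100a11 did not, at 628.5 to 642 FPKM after ATRA and 944 to 1732 FPKM in vehicle.

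**Figure D3:**
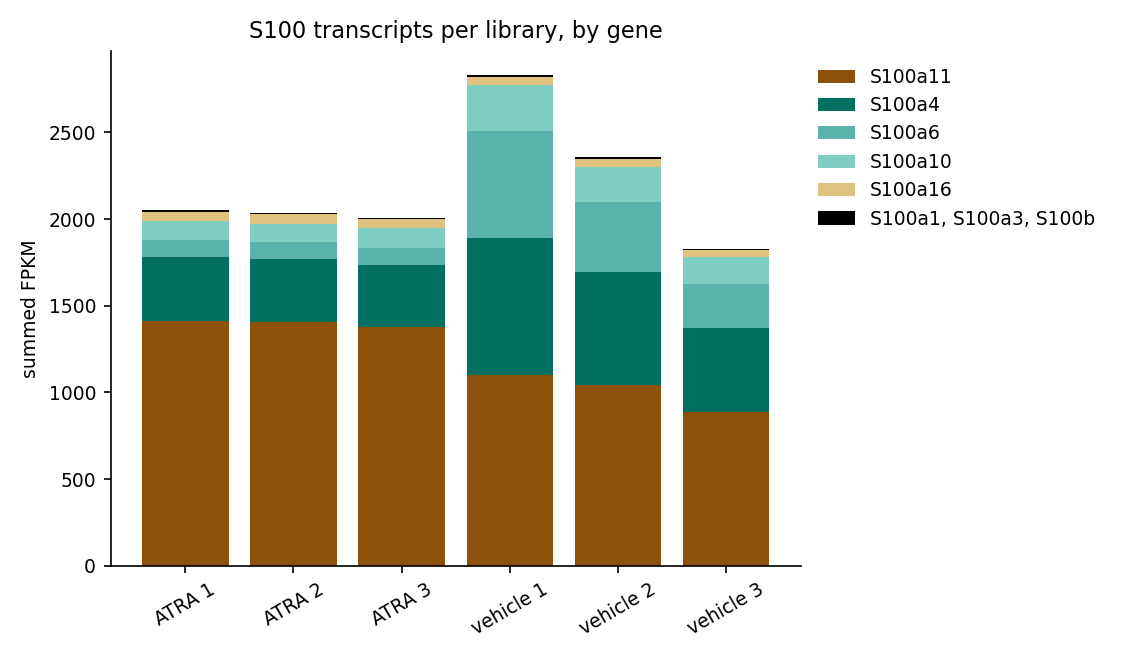
FPKM of the S100 genes stacked for each library (vertical axis, summed FPKM, from 0). S100a11 takes 68.7% to 69.0% of the bar in ATRA libraries and 38.8% to 48.4% in vehicle libraries, while S100a6 takes 4.88% to 4.94% after ATRA and 14.05% to 21.8% in vehicle.

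A further 9 S100 genes had values in the table, and none was tested. S100a8 and S100a9, the calprotectin subunits of neutrophils and monocytes, had 1 read each over the 6 libraries, as had S100g and S100z. S100a7a, S100a7l2 and S100vp had 0 reads in every library, which allows up to 0.0936 to 0.118 CPM, the value of 3 reads, by counting error alone. S100a5 had 3 reads over the ATRA libraries and 9 over the vehicle libraries, and S100a14 had 19 and 17. The highest normalised count among these 9 genes was 10.1, for S100a14 in ATRA replicate 2, and the other 8 stayed below 10 in each library.

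The spread within the vehicle group was shared by most S100 genes. All 8 had a larger SD of normalised counts in vehicle than in ATRA libraries, as had 76.1% of all tested genes. Relative to the mean of vehicle replicates 1 and 2 on the log2 scale, vehicle replicate 3 was lower for 7 of the 8 genes, where 48.6% of all tested genes were lower. The difference was -1.88 for S100b, -0.95 for S100a6, -0.89 for S100a3, -0.58 for S100a10, -0.57 for S100a4, -0.27 for S100a11 and -0.26 for S100a16, and S100a1 was higher by 0.40. Relative to vehicle replicate 3 alone, the ATRA mean was lower by a log2 difference of -1.36 for S100a6, -0.52 for S100a10, -0.46 for S100b and -0.41 for S100a4, and the same for S100a3 (0.0055).

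Fibroblast markers were mixed one by one, while their summed level was lower in each ATRA library than in any vehicle library. This sum was 1286 to 1324 FPKM in ATRA libraries and 3245, 2537 and 1649 FPKM in vehicle replicates 1 to 3. The largest parts of it came from Vim (507 FPKM after ATRA and 1138 FPKM in vehicle) and Col1a1 (447 FPKM after ATRA and 782 FPKM in vehicle). Of 15 fibroblast markers 13 were tested, of which 5 were lower and 2 higher, where 18.9% and 20.3% of all tested genes were, and in 12 of the 13 vehicle replicate 3 lay below the average of vehicle replicates 1 and 2. Postn, which encodes the matrix protein periostin, was lower (log2 fold change -3.52 ± 0.29, SE, limma adjusted p = 0.00011), as was Vim, which encodes the filament protein vimentin (-1.13 ± 0.17, SE, adjusted p = 0.0016), whereas the defining markers Pdgfra and Tcf21 had -0.58 ± 0.34 and 0.07 ± 0.37 and did not pass (SE, adjusted p = 0.215 and 0.901). Dcn was higher (1.53 ± 0.40, SE, adjusted p = 0.018). Epicardial markers summed to 10.9 to 11.6 FPKM in ATRA libraries and 17.6 to 34.9 FPKM in vehicle libraries. Of 6 tested, 5 were called lower, where 18.9% of all tested genes were. In all 6, vehicle replicate 3 lay below the average of vehicle replicates 1 and 2, where 48.6% of all tested genes did. In bulk RNA, fewer cells of a type and less RNA per cell cannot be told apart, and the part of fibroblast or epicardial cells in the S100 result was not tested.

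Markers of glia, immune cells and endothelium were at low levels, and those of smooth muscle at high ones. The 9 Schwann cell and glial markers, relevant to S100b, summed to 1.53 to 1.75 FPKM in ATRA libraries and 3.38 to 4.11 FPKM in vehicle libraries. Among them Sox10, Foxd3 and Cdh19 averaged 0.337, 0 and 0.653 normalised counts after ATRA and 1.01, 0.652 and 0.323 in vehicle, and Mbp was lower after ATRA (log2 fold change -1.79 ± 0.17, SE, limma adjusted p = 0.00021). S100b was low in vehicle replicate 3, where the summed glial level of 3.65 FPKM lay between those of the other vehicle libraries. Immune markers summed to 2.96 to 3.97 FPKM in ATRA libraries and 3.22 to 4.32 FPKM in vehicle libraries, and endothelial markers to 7.41 to 8.04 FPKM in ATRA libraries and 3.98 to 8.18 FPKM in vehicle libraries. Of 4 tested immune markers 1 was higher and 1 lower. Of 7 tested endothelial markers 1 was higher and 2 lower, where 20.3% and 18.9% of all tested genes were. Smooth muscle and pericyte markers summed to 4728 to 4918 FPKM in ATRA libraries and 2087 to 2584 FPKM in vehicle libraries, most of it from the contractile genes Acta2 (2890.3 FPKM after ATRA and 1229 FPKM in vehicle) and Tagln (1756.5 FPKM after ATRA and 939.9 FPKM in vehicle). Of 8 tested, 5 were higher and 2 lower, beside the same 20.3% and 18.9% over all tested genes. The lower ones were the pericyte markers Pdgfrb (log2 fold change -1.34 ± 0.30, SE, limma adjusted p = 0.0097) and Cspg4 (-1.44 ± 0.11, SE, adjusted p = 7.0e-05). Other pericyte markers of the list did not fall with them. Abcc9 was higher (3.48 ± 0.15, SE, adjusted p = 4.4e-06), Kcnj8 did not pass (-0.07 ± 0.41, SE, adjusted p = 0.901) and Rgs5 was below the filter. The part of these cell types in the S100 result was not tested.

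**Figure D4:**
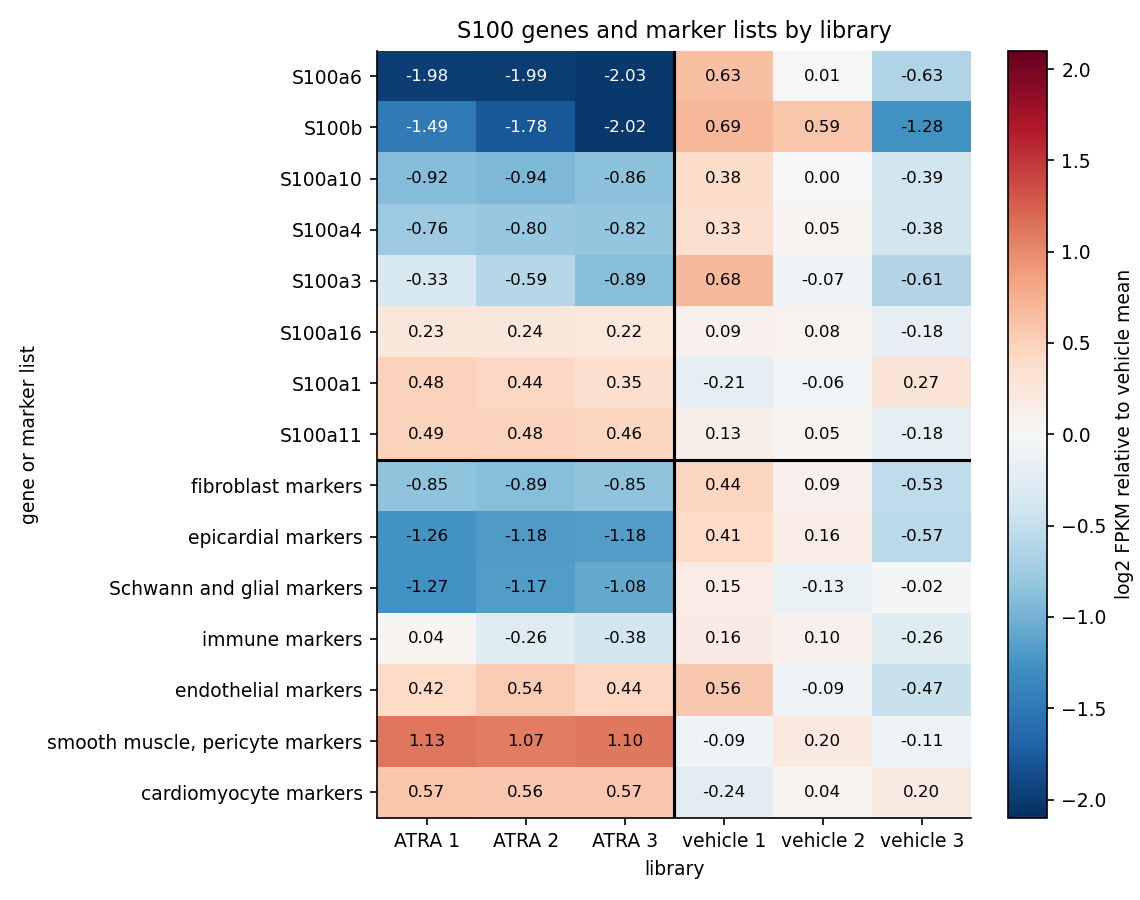
Log2 FPKM of each S100 gene (upper rows) and of each summed marker list (lower rows) relative to its vehicle mean, by library (columns, ATRA left of vehicle). Vehicle replicate 3 has -0.53 for the fibroblast markers, -0.63 for S100a6 and -1.28 for S100b, while S100a11 and S100a16 are above 0 in each ATRA library and S100a1 is highest among vehicle libraries in replicate 3.

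The fit took in 29 of 32 listed genes of known S100 partners and targets. Of these 6 were called higher and 8 lower, where 20.3% of all tested genes were higher and 18.9% lower, 15 did not pass, and the list's median was 0.028 on the log2 scale, beside 0.0044 over all genes tested. Anxa2, the partner of S100a10, had 14435, 14789.7 and 14193 normalised counts in ATRA libraries and 32029.7, 25541 and 23172 in vehicle libraries, with no overlap. It fell 1.84-fold (log2 fold change -0.88 ± 0.11, SE, limma adjusted p = 0.00071). The fold changes of S100a10 and Anxa2 were not tested against each other. Ahnak, which encodes a giant scaffold protein bound by the S100A10 and annexin A2 complex, was lower as well (-0.41 ± 0.08, adjusted p = 0.0066).

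Anxa1, the partner of S100a11, was lower while S100a11 was higher. It had 1549, 1341 and 1334 normalised counts in ATRA libraries, against 5899, 4298 and 3125 in vehicle libraries, and fell 3.06-fold (log2 fold change -1.61 ± 0.20, SE, limma adjusted p = 0.00068). For S100a6 the partner Anxa11 was higher (0.33 ± 0.06, adjusted p = 0.0049), while Cacybp, the calcyclin-binding protein gene, had -0.25 ± 0.10 and Sugt1, a co-chaperone gene, 0.028 ± 0.055, neither past the test (SE, adjusted p = 0.068 and 0.720). Sugt1 had -0.081 with library totals alone and -0.010 without vehicle replicate 3, and Cacybp had -0.15 without vehicle replicate 1 and passed without vehicle replicate 3 (-0.33), with DESeq2 (-0.27) and with library totals alone (-0.36). Myh9, the heavy chain of non-muscle myosin IIA that S100A4 binds, had 16294, 16650.1 and 16833 normalised counts in ATRA libraries and 33079.8, 27069 and 22753.5 in vehicle libraries, and was lower (-0.72 ± 0.12, SE, adjusted p = 0.0028).

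The muscle targets of S100a1 were higher or did not pass. Atp2a2, the calcium pump of the sarcoplasmic reticulum, had 162629, 163529 and 168326 normalised counts in ATRA libraries and 60353.5, 67369 and 86475 in vehicle libraries, a 2.33-fold rise (log2 fold change 1.22 ± 0.13, SE, limma adjusted p = 0.00038). Ryr2, the ryanodine receptor gene, had 0.27 ± 0.11 and Ttn, the titin gene, 0.38 ± 0.14 (SE, adjusted p = 0.089 and 0.061). Ryr2 had 0.13 without vehicle replicate 1. Ryr2 and Ttn passed without vehicle replicate 3 (0.36 and 0.46), and Ttn also without ATRA replicate 3 (0.51) and with DESeq2 (0.38). Fgf1, which S100A13 helps to export, had 0.046 ± 0.100 (SE, adjusted p = 0.746), was -0.062 with library totals alone and -0.039 without vehicle replicate 1, and passed without vehicle replicate 3 (0.16). Syt1, another part of that export complex, was below the filter on low values at 8.16 ± 2.57 normalised counts after ATRA and 4.45 ± 6.27 in vehicle (SD, n = 3 each).

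Ager, the gene of the receptor RAGE through which extracellular S100 proteins signal, was near the filter at 19.97 ± 5.27 normalised counts after ATRA and 16.7 ± 2.84 in vehicle and did not pass (SD, n = 3 each, limma adjusted p = 0.582). The other large changes of the list were rises of Ctsb, a lysosomal protease gene (log2 fold change 1.50 ± 0.07, SE, adjusted p = 4.3e-06), and Hltf, a chromatin remodeller gene (0.51 ± 0.11, SE, adjusted p = 0.0074), and a fall of the scaffold gene Iqgap1 (-0.84 ± 0.11, SE, adjusted p = 0.00082). Without vehicle replicate 3 the list had 10 higher members. Over all genes the count of higher ones ran from 1665 to 3398 with 1 library left out, beside 2667 with all libraries.

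Of 33 listed EF-hand genes outside the S100 family the fit took in 25. Of these 5 were called higher and 6 lower, beside the same 20.3% and 18.9% over all tested genes, 14 did not pass, and the list's median was -0.11 on the log2 scale. Calm2, a gene of the calcium sensor calmodulin, was lower (-0.51 ± 0.07, SE, limma adjusted p = 0.0012). Sri, the gene of sorcin, which binds the ryanodine receptor, had 6565, 6731 and 6650.5 normalised counts in ATRA libraries and 3272, 3221 and 3554 in vehicle libraries, a 1.99-fold rise with narrow groups (0.99 ± 0.05, SE, adjusted p = 1.2e-05).

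Gca, the gene of the sorcin relative grancalcin, was higher (0.60 ± 0.07, SE, limma adjusted p = 0.00064), as was Efhd2, the swiprosin gene (0.53 ± 0.05, SE, adjusted p = 0.00012). The largest falls were those of Plcd1, a phospholipase C gene (-1.55 ± 0.14, SE, adjusted p = 0.00018), and of Rcn3 and Rcn2, which encode calcium-binding proteins of the secretory pathway (-1.42 ± 0.26 and -0.73 ± 0.10, SE, adjusted p = 0.0043 and 0.0014). Without vehicle replicate 3, and with library totals alone, 11 members were lower. Over all genes library totals alone gave 3769 lower, beside 2483 in the main fit. With 1 library left out that count ran from 1636 to 3061.

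**Figure D5:**
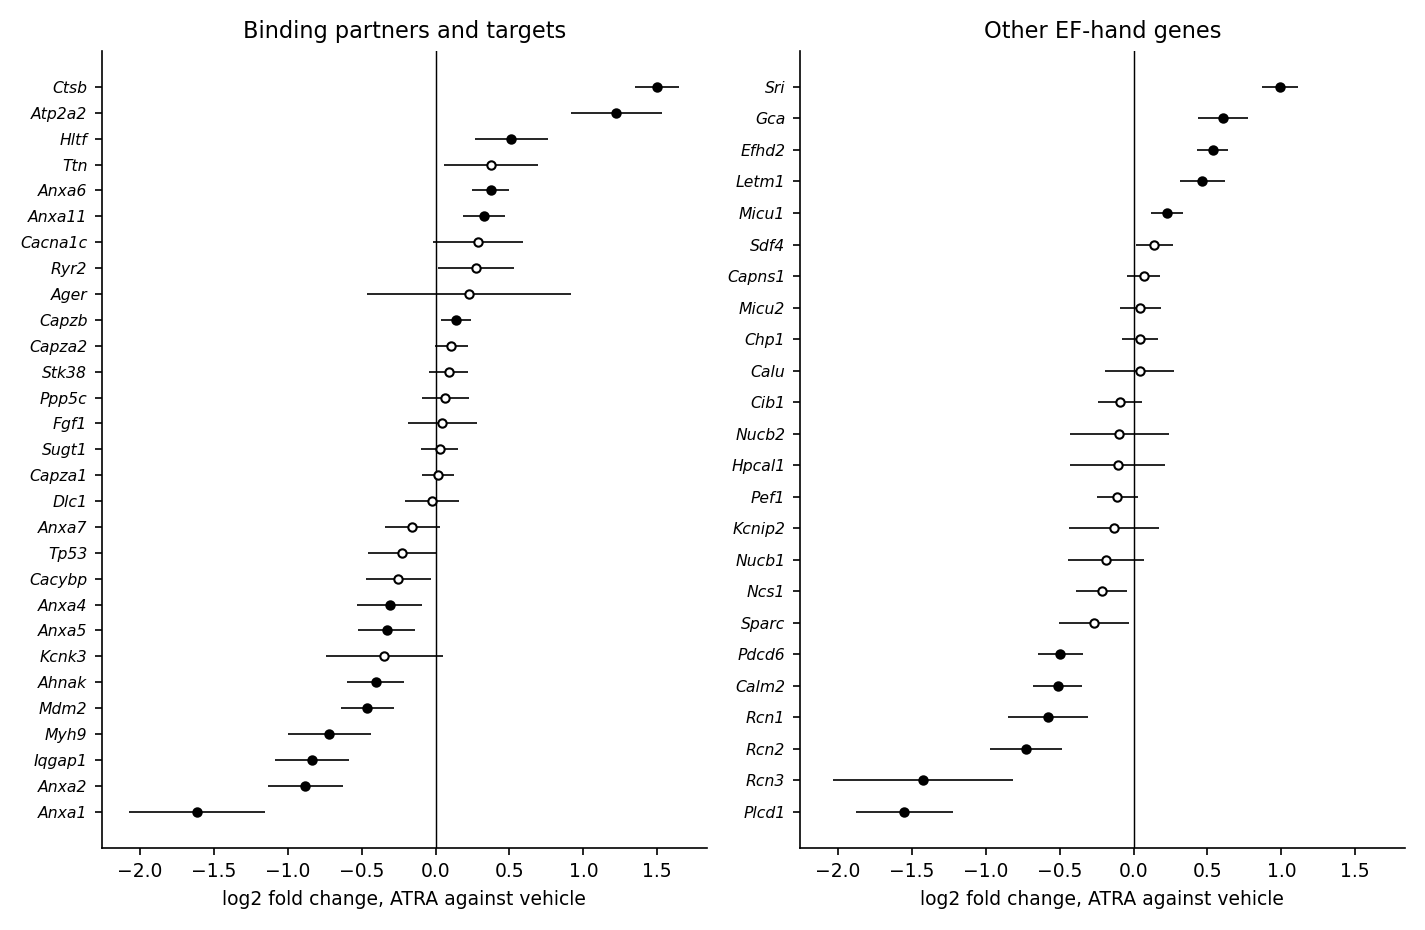
Log2 fold change, ATRA against vehicle (horizontal axis), with 95% intervals from limma for the 29 tested partner and target genes (left) and 24 of the 25 tested EF-hand genes outside the S100 family (right), filled where the adjusted p was under 0.05. Ctsb (1.50) and Atp2a2 (1.22) lie at the upper end and Anxa1 (-1.61) at the lower end on the left, Sri (0.99) and Plcd1 (-1.55) on the right.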

How the data were processed

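Per the submitters' processing notes, Trim Galore 0.6.4, STAR 2.7.3a, HTSeq 0.11.2, DESeq2 1.32.0 were run, on the rat build mRatBN7.2. The sources used here do not give the annotation release, the strand setting or how multi-mapping reads were counted. Per the file headers, the deposited table holds a normalised count signal and an FPKM value per gene and library, both made by the authors, and FPKM is a constant per gene times the normalised count. The authors' own comparison is also deposited, with a p-value and its adjusted form beside a log2 fold change, the error of that change and a test score.

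The normalised counts were whole multiples of a step per library (100% of values within 1e-08), which gave back the reads. The step of ATRA replicate 2 was 1.01, near the step of 1 that unscaled counts have. No libraries were duplicates, with chi-square per degree of freedom of 2.61 to 3.45 between ATRA libraries and 23.29 to 49.18 between vehicle libraries. Limma 3.58.1 with trended variance in R 4.3.3 was run on log2(normalised count + 1), without a block, for genes with at least 10 normalised counts in at least 3 libraries, and calls were made at an adjusted p under 0.05. The log2(value + 1) scale understates changes of low genes. The test was checked on simulated data with the same scatter in both groups, so that check does not cover the larger scatter of the vehicle libraries. Alternatives were pseudocounts of 0.5 and 5, no filter, a mean of at least 50, library totals, TMM factors, edgeR 4.0.16, DESeq2 1.42.0, each library left out, and a replicate block.

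The 9 genes and all lists were chosen with earlier results of these data known. Named were all members, other S100 genes, textbook partners and the 3 largest called rises and falls of each list, which among partners and EF-hand genes outside the family are given in full, except that the result of an EF-hand gene is not reported here. Myh7, Col1a1, Postn, Vim, Pdgfra, Tcf21, Dcn, Sox10, Foxd3, Cdh19, Mbp, Acta2, Tagln, Pdgfrb, Cspg4, Abcc9, Kcnj8 and Rgs5 were named from the marker lists after their values were seen. Of the listed symbols S100a2, S100a12, S100p, Pln, Calm3, Cib2, Ppp3r1, Pvalb and Krt19 were not matched and were not analysed here. Promoter windows and gene order come from RefSeq tables of GRCr8, another build than that of the counts, and 7 of the 9 named genes matched a window.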

Additional observations from a re-analysis of the deposited data

How the results depend on the processing

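S100a6, S100a4, S100a10 and S100a11 kept their direction and their call under all 15 alternatives, with log2 fold changes of -2.31 to -1.68, -0.98 to -0.62, -1.10 to -0.71 and 0.37 to 0.54. The count of S100 genes called higher was 1 with library totals alone and 1 with the replicate block, and 1 to 3 with each library left out in turn, and the count called lower was 3 to 5. Library totals alone gave 1765 higher and 3769 lower genes, and leaving out each library 1665 to 3398 higher and 1636 to 3061 lower. Partner genes called higher numbered 5 to 10 with a library left out, and lower EF-hand genes 6 to 11, or 11 with library totals alone. Fgf1 reversed to -0.062 with library totals alone and -0.039 without vehicle replicate 1, and Sugt1 to -0.081 with library totals alone and -0.010 without vehicle replicate 3, where Fgf1 had 0.163. The cause was not tested, except that the stricter filter drops S100b and S100a3 by construction. The labels do not say what a replicate number marks, and same-numbered libraries did not deviate together (correlation across genes of 0.00041, -0.10 and -0.013 for numbers 1 to 3). With the number as a replicate block 2302 genes were higher and 2135 lower, and S100a1 (adjusted p = 0.071) and S100a16 (0.056) were no longer called. With 3 libraries a group, and 15 to 114 reads of S100b in each, small changes of S100b and S100a3 were not detectable.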

Other observations

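The tested genes whose profile over the 6 libraries was most like that of S100a11, by the root mean square difference of log2(normalised count + 1) centred on the vehicle mean, were Tpt1, Cst3 and Grn, at 0.034, 0.035 and 0.037. Tpt1 encodes translationally controlled tumour protein, Cst3 the protease inhibitor cystatin C and Grn the secreted factor progranulin. Their log2 fold changes were 0.50 ± 0.08, 0.50 ± 0.08 and 0.50 ± 0.09 (SE, limma adjusted p = 0.0017, 0.0023 and 0.0036, n = 3 libraries per group). Tpt1 averaged 42649 normalised counts after ATRA and 30150.2 in vehicle. In all 3 genes vehicle replicate 3 was the lowest library, as it was for S100a11.

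The profiles most like that of S100a6 were those of Nfatc1, a calcium-regulated transcription factor gene, Cyp1b1, a cytochrome P450 gene, and Cd44, which encodes the hyaluronan receptor, at 0.080, 0.082 and 0.086. Their log2 fold changes were -2.07 ± 0.25, -1.91 ± 0.28 and -2.08 ± 0.22 (SE, limma adjusted p = 0.00061, 0.0015 and 0.00037). Cd44 averaged 615 normalised counts after ATRA and 2716 in vehicle. Each had its vehicle values in the same order as S100a6, highest in vehicle replicate 1 and lowest in vehicle replicate 3. The likeness describes these 6 libraries, which share the treatment split, and no test was made of it.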
